A study of Mus musculus with 20 samples.

Results

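A set of 8 genes of the mammalian circadian clock was followed in mouse liver. They are Arntl, Clock and Npas2, whose products activate transcription, Nr1d1 and Nr1d2 (REV-ERB alpha and beta), Rora (an ROR receptor), and Bhlhe40 and Bhlhe41 (DEC1 and DEC2). They were chosen by name, with no measured value in the choice, and are 8 of the 21768 genes in the deposited table. Each gene is represented by the transcript with the highest read count summed over the 10 input libraries. The libraries came from wild-type (WT) livers in 4 groups. At each time, 3 livers of animals given cadmium chloride (CdCl2, 100 mg/L, in the drinking water) for 3 or 9 months were set against 2 control livers of the same time. The study concerns the RNA mark m6A, and only the input libraries, which hold RNA without the m6A pull-down, are used here. Age, sex, strain and the hour at which the livers were taken are not given in the labels, nor is it stated that the replicates are separate animals. The p-values therefore measure the spread between these libraries, which may be technical.

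In the clock of mammalian cells, the ARNTL protein (also called BMAL1) pairs with CLOCK or NPAS2 and binds E-box sequences to switch on genes for the PER and CRY repressors, the REV-ERBs and the DECs. REV-ERBs and RORs compete for the same response elements, where RORs activate and REV-ERBs repress, and Arntl is a classic target of both. In liver these genes are known to be rhythmic over the day, with Arntl and Nr1d1 peaking at nearly opposite hours, and they time much of the organ's metabolism.

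Libraries held 3958164 to 8912898 reads over the chosen transcripts, so that 3 reads, taken as the floor, corresponded to 0.352 to 0.663 CPM (counts scaled to the TMM-adjusted size of the library). Floors and counts cover counting error only. The 2 control livers at 3 months stood apart from the rest. Each correlated with the remaining libraries at a median of 0.828 and 0.827, where the other 8 reached 0.895 to 0.931, and their biological coefficient of variation of 0.909 was above the 0.368 to 0.528 of the other groups. Hepatocyte markers were high in all libraries (sum of 9 of 10 listed genes 76847.1 to 114617.8 CPM; Alb 30564.3 to 68211.5 CPM). Pancreas markers (12 genes) summed to 1800.4 CPM in CdCl2 liver 1 at 9 months and to 9237.7 CPM in control liver 2 at 9 months, against 8.4 to 250.0 CPM in the other libraries, and were not all at 0 in any of them. Their part in the results was not tested. In bulk liver, fewer cells of a type and less RNA per cell cannot be told apart.

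All 8 genes passed the filter on low counts, beside 14067 genes in all. None of the 8 passed an adjusted p of 0.05 (edgeR's quasi-likelihood test with Benjamini-Hochberg adjustment over all genes) for CdCl2 against control at either time or for the mean of both times. Across all genes 0.0498% passed at 3 months, 0.0% at 9 months and 0.064% for the mean. DESeq2 called 4 of the 8 at 3 months, 1 at 9 months and 3 for the mean, where it called 465, 7 and 112 of all 14067 genes. Limma voom with library weights called 0, 1 and 2 of the 8, and 2, 3 and 12 of all genes. With control liver 2 of 3 months left out edgeR called 2 of the 8 at 3 months, 0 at 9 months and 3 for the mean, and 720, 1 and 391 of 15588 genes. With control liver 3 left out it called 3, 0 and 4 of the 8, and 1247, 1 and 325 of 15289 genes. In both of these fits, wherever they are given here, the 3-month controls are 1 library, whose variation is borrowed from the rest, so the calls contain no measure of the spread between 3-month controls. At an unadjusted p under 0.05, 3 of the 8 were higher and 3 lower in CdCl2 livers at 3 months, where 14.5% of all genes met that rule. At 9 months 1 was higher and 2 were lower, against 2.25% of all genes, and for the mean of both times 3 were higher and 3 lower, against 8.35%. The median log2 fold change of the 8 genes was 0.10 at 3 months and 0.42 at 9 months, beside 0.01 for all genes at each time, and conceals a split: the values of the 3 activator genes were negative at both times, and those of the REV-ERB and DEC genes positive at both.

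**Figure D1:**
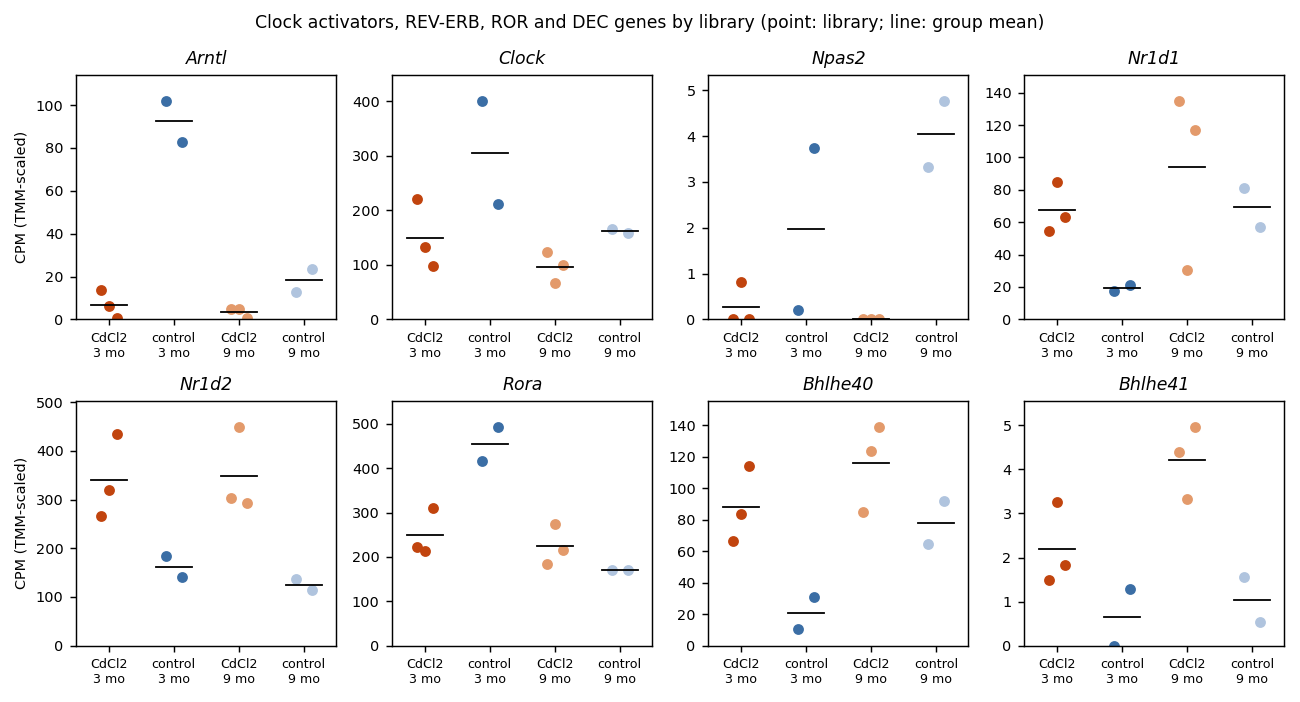
CPM (y axis, linear and from 0) of each of the 8 genes in every library, by group (x axis; CdCl2 left of its control at 3 and at 9 months; each point is a library and each line a group mean). Arntl lies below 24 CPM in all CdCl2 livers and in the 9-month controls, against 102 and 82.7 CPM in the 3-month controls, and Nr1d2 lies above its controls in all 6 CdCl2 livers.

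The level per transcript length was compared between genes in TPM as deposited. Over the 10 libraries Nr1d2 had the highest mean, 44.5 TPM, with a range of 19.9 to 73.0. Bhlhe40 followed at 20.7 TPM (2.74 to 39.1), then Nr1d1 at 19.3 (4.96 to 37.2), Rora at 19.2 (12.8 to 33.6) and Clock at 13.5 (5.11 to 32.6). Arntl averaged 3.83 TPM (0.0798 to 15.8), Bhlhe41 0.294 (0.0 to 0.712) and Npas2 0.253 (0.0 to 0.928). Each neighbouring pair in this order overlapped in range. The order itself differed by group: Nr1d2 ranked first in both CdCl2 groups and in the 9-month controls, while in the 3-month controls Rora ranked first, Arntl 4 and Bhlhe40 6.

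Arntl (gene 11865, chr7:113231721-113314126 in the coordinates of the deposited table, taken as mm10) encodes the obligate partner of CLOCK and NPAS2 and is the one gene of the core loop whose loss stops the clock in mice. It had 13.6, 6.14 and 0.523 CPM in CdCl2 livers at 3 months, against 102 and 82.7 CPM in control livers at 3 months. It had 4.86, 4.90 and 0.827 CPM in CdCl2 livers at 9 months, against 12.6 and 23.7 CPM in control livers at 9 months. At each time every CdCl2 liver lay below or, at 3 months, far below both controls. In CPM Arntl was the only one of the 8 genes to lie below its controls without overlap at both times. Among all genes 1.39% did so in CPM. In deposited TPM Clock lay below its controls at both times as well. The lowest CdCl2 liver at 3 months held 4 reads of Arntl, close to the floor.

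The log2 fold change of Arntl was -3.77 ± 0.83 (SE) at 3 months (edgeR adjusted p = 0.0859), -2.34 ± 0.83 at 9 months (adjusted p = 1.0) and -3.06 ± 0.58 for the mean of both times (adjusted p = 0.0862). DESeq2 called it at 3 months (adjusted p = 0.00115) and for the mean (0.00015). Over the alternative settings Arntl passed in 4 of 20 at 3 months, 1 of 20 at 9 months and 6 of 19 for the mean. These counts include the fits with a single 3-month control. Leaving out control liver 2 or 3 of 3 months gave an adjusted p of 0.0171 and 0.0123 at 3 months, on log2 fold changes of -3.61 and -3.91, each against a single control whose spread was taken from the other groups. The 15 annotated Arntl transcripts shared nearly all their reads, with 1521 to 1630 reads each over the 10 libraries.

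Arntl is a textbook target of REV-ERB and ROR, so the start of its gene is shown. The RefSeq promoter table (GRCm38.p6) holds windows of 250 bases before to 50 after 2 Arntl starts on the plus strand, both upstream of the chosen transcript. The motif AGTAGGT (both strands searched), which was chosen after this sequence was seen, starts at position 39 after the first start and at position 29 after the second, counted from 1 at the start base. Its letters are in capitals.
Arntl first site, chr7:113207485-113207514: ggagcggattggtcggaaAGTAGGTtagtg
Arntl second site, chr7:113207528-113207557: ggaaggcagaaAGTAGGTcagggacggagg
The motif is in 2.46% of the 32851 windows of the table, and in no window of the other 6 genes that have one; Bhlhe40 has no window here. In the second site it overlaps the nuclear receptor motif AGGTCA, which 16.3% of all windows hold on either strand.

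Clock (gene 12753, chr5:76209868-76304792) encodes the usual partner of ARNTL. It had 221, 132 and 97.2 CPM in CdCl2 livers at 3 months, against 401 and 211 CPM in control livers at 3 months. It had 123, 66.8 and 100 CPM in CdCl2 livers at 9 months, against 165 and 158 CPM in control livers at 9 months. The groups overlapped in CPM at 3 months, where CdCl2 liver 1 exceeded control liver 3, and did not overlap at 9 months. The log2 fold change was -1.03 ± 0.38 at 3 months (edgeR adjusted p = 0.26), -0.74 ± 0.38 at 9 months (1.0) and -0.88 ± 0.27 for the mean (0.418). The value at 3 months leaned on the controls: it was -0.49 (adjusted p = 0.568) without control liver 2 and -1.41 (adjusted p = 0.0334) without control liver 3, with 1 control left in each fit. Its promoter window holds the motif AGGTCA on the opposite strand, in capitals as read on the gene strand.
Clock, minus strand, chr5:76303604-76303633: agctttggcctcTGACCTgacagatgacag

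Npas2 (gene 18143, chr1:39194272-39363240), a paralog of Clock that can replace it as partner of ARNTL, was near the floor throughout, with 90 reads in all. It had 0, 0.819 and 0 CPM in CdCl2 livers at 3 months, against 0.211 and 3.75 CPM in control livers at 3 months, and these overlap. At 9 months all 3 CdCl2 livers had 0 reads, against 3.32 and 4.77 CPM, or 51 reads, in the 2 control livers. Against a floor of 3 reads per library, Npas2 was at least 7.75-fold lower in CdCl2 livers at 9 months (edgeR adjusted p = 1.0, unadjusted 0.011). At 3 months the log2 fold change of -2.79 ± 1.94 (adjusted p = 0.538) rested on control liver 3, and was 0.35 without it.

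Nr1d1 (gene 217166, chr11:98767932-98775377) encodes REV-ERB alpha, a heme-binding repressor. It had 54.4, 84.9 and 63.2 CPM in CdCl2 livers at 3 months, against 17.3 and 21.1 CPM in control livers at 3 months. It had 135, 30.5 and 117 CPM in CdCl2 livers at 9 months, against 81.2 and 57.0 CPM in control livers at 9 months. The groups were apart at 3 months and overlapped at 9 months, where CdCl2 liver 2 was the lowest of the 5. The log2 fold change was 1.81 ± 0.51 at 3 months (edgeR adjusted p = 0.146; DESeq2 0.0226), 0.45 ± 0.48 at 9 months (1.0) and 1.13 ± 0.35 for the mean (0.418).

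Nr1d2 (gene 353187, chr14:18204056-18239106) encodes REV-ERB beta, which overlaps REV-ERB alpha in function. It had 266, 319 and 434 CPM in CdCl2 livers at 3 months, against 184 and 141 CPM in control livers at 3 months. It had 304, 449 and 293 CPM in CdCl2 livers at 9 months, against 137 and 114 CPM in control livers at 9 months. All 6 CdCl2 livers lay above all 4 controls. Nr1d2 and Bhlhe41 were the 2 genes of the 8 that lay above their controls without overlap at each time, which 1.37% of all genes did. Bhlhe41 was barely apart at 3 months, with 10 reads in its lowest CdCl2 liver and 11 in its highest control. For Nr1d2 the log2 fold change was 1.06 ± 0.32 at 3 months (edgeR adjusted p = 0.17), 1.48 ± 0.32 at 9 months (adjusted p = 1.0, unadjusted 0.000453) and 1.27 ± 0.23 for the mean of both times (0.0701). DESeq2 called it at 3 months (0.0353), 9 months (0.023) and for the mean (3.39e-05), and limma voom with library weights at 9 months (0.0366) and for the mean (0.0437). Over all settings tried, its log2 fold change for the mean stayed between 1.16 and 1.37. Most alternative settings did not call Nr1d2, however. It passed in 1 of 20 at 3 months, 3 of 20 at 9 months and 5 of 19 for the mean. Of these 5, 2 were fits with a single 3-month control.

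The Nr1d2 promoter holds the motif AGGTCA starting 77 bases before the start site, in capitals.
Nr1d2, minus strand, chr14:18239131-18239230: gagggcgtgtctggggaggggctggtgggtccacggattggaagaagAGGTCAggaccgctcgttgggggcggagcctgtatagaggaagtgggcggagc

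Rora (gene 19883, chr9:69289841-69388246) encodes the receptor that activates at the elements REV-ERBs repress. It had 223, 213 and 311 CPM in CdCl2 livers at 3 months, against 416 and 493 CPM in control livers at 3 months. It had 185, 274 and 216 CPM in CdCl2 livers at 9 months, against 171 and 171 CPM in control livers at 9 months. In CPM the CdCl2 livers thus lay below both controls at 3 months and above both at 9 months. In deposited TPM they lay below both at 3 months as well, but the groups overlapped at 9 months. The 9-month values were 12.9, 18.8 and 17.4 TPM in CdCl2 livers, against 14.9 and 12.8 TPM in control livers. The log2 fold change was -0.87 ± 0.28 at 3 months (edgeR adjusted p = 0.195), 0.39 ± 0.28 at 9 months (1.0) and -0.24 ± 0.20 for the mean (0.816). The difference of these effects, 9 minus 3 months, was 1.26 ± 0.40 and did not pass (edgeR adjusted p = 0.443, unadjusted 0.0071), in a test that 9.42% of all genes met at an unadjusted p under 0.05.

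Bhlhe40 (gene 20893, chr6:108660629-108666925) encodes DEC1, which represses at E-boxes. It had 66.3, 83.5 and 114 CPM in CdCl2 livers at 3 months, against 10.8 and 30.7 CPM in control livers at 3 months. It had 84.9, 124 and 139 CPM in CdCl2 livers at 9 months, against 64.4 and 92 CPM in control livers at 9 months. The groups were apart at 3 months and overlapped at 9 months, where CdCl2 liver 1 lay below control liver 2. The log2 fold change was 2.07 ± 0.44 at 3 months (edgeR adjusted p = 0.0845; DESeq2 0.000862), 0.57 ± 0.41 at 9 months (1.0) and 1.32 ± 0.30 for the mean (0.238). This fold change passed in 4 of 20 alternative settings at 3 months, 0 of 20 at 9 months and 4 of 19 for the mean. Without control liver 2 of 3 months it was 1.52 at 3 months (adjusted p = 0.0394), and without control liver 3 it was 3.03 (0.00465), again with the spread of the 1 control left taken from the other groups. The difference of effects, 9 minus 3 months, was -1.5 ± 0.58 (adjusted p = 0.487), and -2.47 (0.0196) without control liver 3 of 3 months.

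Bhlhe41 (gene 79362, chr6:145858243-145865420) encodes DEC2, a close paralog of DEC1, and was low, with 143 reads in all. It had 1.5, 3.27 and 1.83 CPM in CdCl2 livers at 3 months, against 0 and 1.29 CPM in control livers at 3 months. It had 4.39, 3.32 and 4.96 CPM in CdCl2 livers at 9 months, against 1.55 and 0.53 CPM in control livers at 9 months. In CPM the groups did not overlap at either time. At 3 months, though, CdCl2 liver 1 held 10 reads and control liver 3 held 11, so library scaling set their order. The log2 fold changes, 1.66 ± 1.36 at 3 months (edgeR adjusted p = 0.61), 2.03 ± 1.39 at 9 months (1.0) and 1.85 ± 0.97 for the mean (0.653), were within 2 SE of 0. Without control liver 3 of 3 months, which leaves the control at 0 reads, the fits gave 6.79 at 3 months and 4.41 for the mean, and without control liver 2 they gave 0.77 and 1.40; none of these passed. Of the 7 genes with a promoter window, Bhlhe41 alone holds the E-box CACGTG, starting 153 bases before the start site; 7.15% of all windows hold it. The E-box is in capitals.
Bhlhe41, minus strand, chr6:145865521-145865620: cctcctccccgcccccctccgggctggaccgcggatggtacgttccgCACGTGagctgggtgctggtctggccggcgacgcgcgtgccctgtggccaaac

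**Figure D2:**
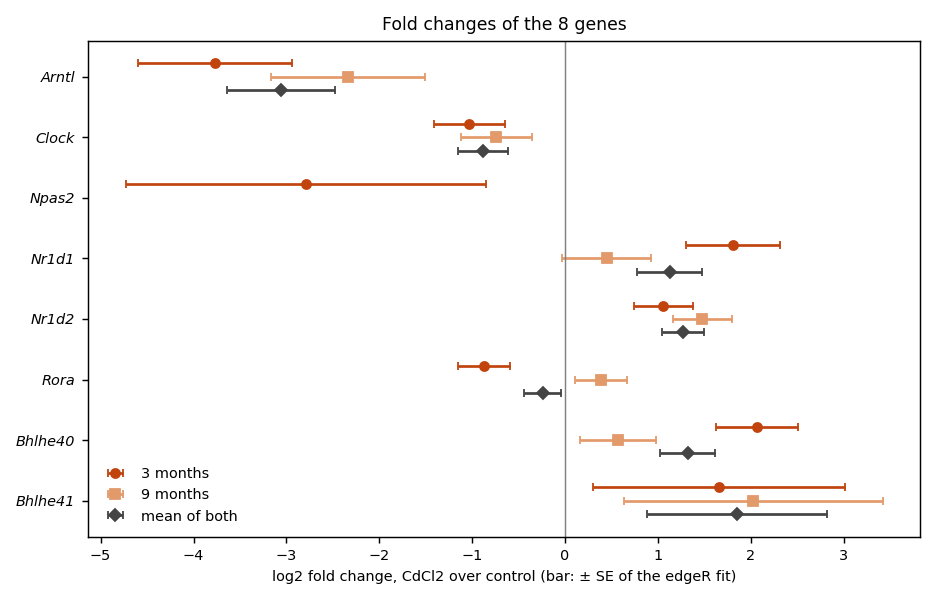
Log2 fold change of CdCl2 over control (x axis) for each of the 8 genes (y axis) at 3 months (circles), 9 months (squares) and for the mean of both times (diamonds), with the SE of the edgeR fit as bars. Arntl and Clock lie left of 0 and Nr1d1, Nr1d2, Bhlhe40 and Bhlhe41 right of 0 at both times, while Rora changes side; Npas2 is drawn at 3 months only, since its 9-month CdCl2 livers are all at 0.

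Counted without a fit, 4 of the 8 genes lay above both controls at 3 months without overlap (Nr1d1, Nr1d2, Bhlhe40 and Bhlhe41) and 2 below (Arntl and Rora), where 13.9% of all genes lay above and 11.9% below. At 9 months 3 lay above (Nr1d2, Rora and Bhlhe41) and 3 below (Arntl, Clock and Npas2), where 10.3% of all genes lay above and 11.8% below. These counts are of CPM. In deposited TPM Rora overlapped at 9 months, and Clock lay below both controls at 3 months. At an adjusted p under 0.1, Arntl and Bhlhe40 passed at 3 months, where 0.803% of all genes did, and Arntl and Nr1d2 for the mean of both times, where 0.164% did. The list is small and was named for its biology, so these shares describe it and are not a test.

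**Figure D3:**
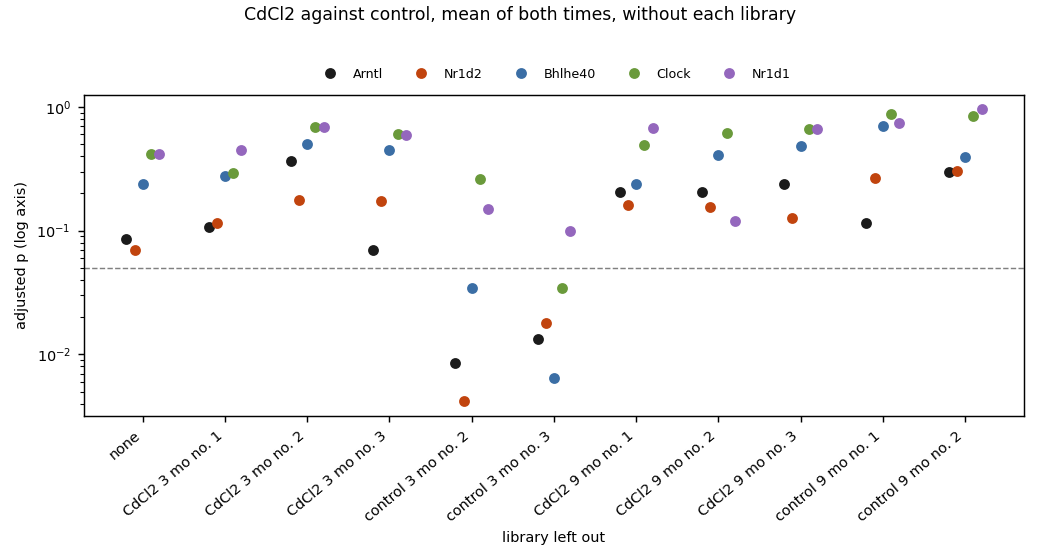
Adjusted p (y axis, log scale) of 5 genes for CdCl2 against control, mean of both times, with all libraries and with each library left out (x axis); the dashed line is 0.05. Arntl, Nr1d2 and Bhlhe40 fall below the line when either 3-month control is left out and stay above it otherwise, and Clock falls below it when control liver 3 is left out; in these fits the 3-month controls are 1 library, and the other groups set the spread.

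The 9-month controls were next set against the 3-month controls, libraries that the comparisons above use too. Rora was the only one of the 8 genes past the threshold in edgeR, with 171 and 171 CPM in control livers at 9 months, against 416 and 493 CPM at 3 months. Its log2 fold change, 9 over 3 months, was -1.41 ± 0.31 (edgeR adjusted p = 0.0446), in a comparison that 1.89% of all genes passed. Its fold stayed between -1.52 and -1.28 when each library was left out in turn, while the adjusted p ran from 0.0104 to 0.323. It passed in the 2 fits with a single 3-month control and missed the threshold in the other 8, among them the 6 that left out a CdCl2 liver (0.0585 to 0.0806). DESeq2 called Rora (0.000494), Nr1d1 (1.83, 0.0186) and Bhlhe40 (1.89, 0.00344), where it called 1220 of all genes, and limma voom called none of the 8 and none of all genes, with 3 of the 8 and 1665 of all genes at an unadjusted p under 0.05. In edgeR Bhlhe40 had 1.90 ± 0.46 (adjusted p = 0.0533), Nr1d1 1.84 ± 0.54 (0.08), Arntl -2.33 ± 0.90 (0.169) and Clock -0.92 ± 0.43 (0.247). Of the 8 genes 6 did not overlap between the control groups, 2 above at 9 months, where 26.1% of all genes were, and 4 below, where 20.0% were. Marker lists of cell types went both ways in the same comparison. Of 8 stellate cell and fibroblast markers, 7 had positive values, with a median log2 fold change of 1.39. Their summed level was 302 and 299 CPM in control livers at 9 months, against 296 and 232 CPM at 3 months. The 2 most abundant of them, Reln and Lrat, had 0.06 ± 0.29 and -0.49 ± 0.44. All 4 tested of 7 erythroid markers were positive too (median 1.08; sum 102 and 153 CPM at 9 months, against 31.6 and 59.3 CPM at 3 months). EdgeR called none of the stellate or erythroid list, with 3 and 2 at an unadjusted p under 0.05, and DESeq2 called 2 of each. Endothelial markers had 2 of 8 positive (median -0.51) and hepatocyte markers 4 of 9 (median -0.26). Kupffer cell and macrophage markers had 8 of 10 positive (median 0.31), and pancreas markers all 11 that were tested (median 4.92). The part of these lists in the result for Rora was not tested.

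Within CdCl2 livers, 9 against 3 months, none of the 8 passed, as for 0.0% of all genes in edgeR, and none had an unadjusted p under 0.05, against 4.95% of all genes. DESeq2 and limma voom called none of the 8 either, and 11 and 3 genes in all. The log2 fold changes of the 8 had a median of -0.05. Nr1d2 was the flattest at 0.04 ± 0.27, with means of 349 CPM at 9 months and 340 CPM at 3 months (SD 87.1 and 86.1, n = 3 each), and 1 gene of the 8, Bhlhe41, lay above at 9 months without overlap, against 7.23% of all genes.

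Levels of the other genes were read against Arntl across libraries, as log2(CPM + 1). Since the 3-month controls form a group apart in Arntl, r is given for the other 8 libraries and within the 6 CdCl2 livers. Over the 8 libraries r was 0.665 for Clock, 0.686 for Npas2, -0.261 for Nr1d1, -0.733 for Nr1d2, -0.672 for Rora, -0.718 for Bhlhe40 and -0.640 for Bhlhe41. The choice of libraries turns a sign: for Rora r is 0.457 when the 3-month controls are included. Within the 6 CdCl2 livers r ran from -0.807 for Bhlhe40 to 0.590 for Clock, and Spearman's rho from -0.714 to 0.657 for the same genes. None of the 7 relations within CdCl2 livers passed (two-sided exact permutation tests). The lowest p, for Bhlhe40, was 0.0583 for r (0.408 adjusted over the 7 by Benjamini-Hochberg) and 0.136 for rho. Without the 2 livers farthest from the median of Arntl, r for Bhlhe40 was -0.768. That value rests on 4 livers, too few to judge the relation by. The points share groups and library depth, and each time alone holds 5 libraries, too few for a correlation.

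**Figure D4:**
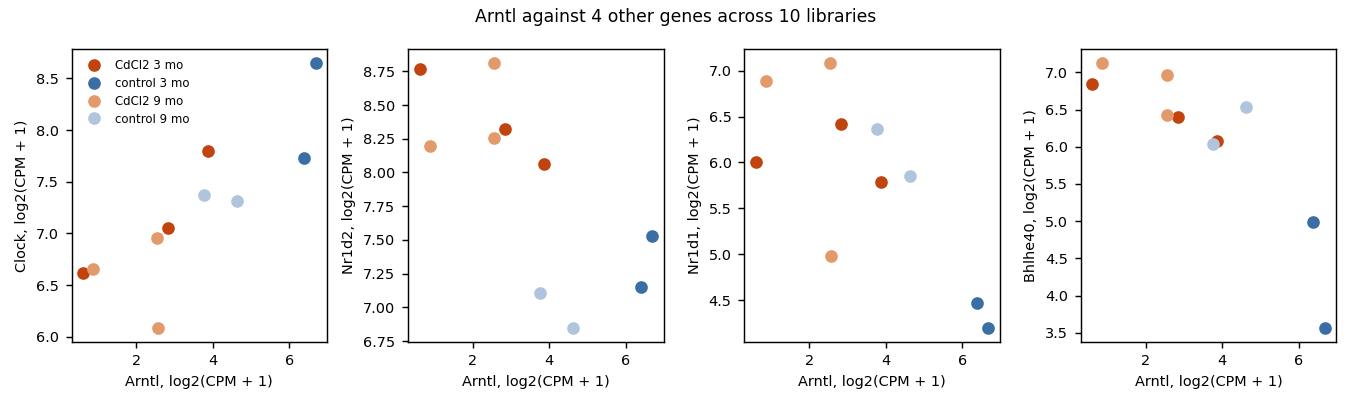
Log2(CPM + 1) of Clock, Nr1d2, Nr1d1 and Bhlhe40 (y axes) against Arntl (x axes), each point 1 of the 10 libraries, coloured by group. The 3-month controls sit alone at the right, with low Nr1d1 and Bhlhe40. Clock is highest in control liver 2 of 3 months (401 CPM), while control liver 3 (211 CPM) lies below CdCl2 liver 1 of 3 months (221 CPM). Within the 6 CdCl2 livers r between Bhlhe40 and Arntl is -0.807 (exact permutation p = 0.0583).

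For each gene the most similar other genes were taken from 9417 genes with at least 5 CPM on average, by Pearson r. All 10 libraries were used, so r describes these libraries with groups included. The cluster of control livers that turned the sign of r for Rora above is among them. Its part in these values was not tested. Each named gene was picked from the ends of a ranking of 9417 genes, so extreme values of r are selected. Arntl was closest to Rps20, Emc8 and Arsk (r = 0.916 to 0.901) and least like Sdhc (-0.940). Clock was closest to Lgalsl, 0610009B22Rik and Gm16035 (0.970 to 0.948), with Nsdhl at the other end (-0.959). Rora was closest to Lrrc58, Nucks1 and Wdr86 (0.973 to 0.965) and farthest from Aph1a (-0.969). Nr1d2 was closest to Rbm25, Magt1 and Dbp (0.908 to 0.899), and Mcm7 had the most negative value (-0.974). For Nr1d1 these were Rfng, Ufc1 and Ralgps1 (0.957 to 0.938) with Gtpbp4 (-0.942), and for Bhlhe40 Grik5, Mov10 and Aamp (0.965 to 0.955) with Id4 (-0.939). For Npas2 they were Spg20, Eif4ebp1 and Chd4 (0.941 to 0.877) with Ssh2 (-0.916), and for Bhlhe41 Spry4, Arhgap17 and Bub3 (0.916 to 0.901) with Etv3 (-0.915).

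Among 17 other clock genes, 15 were tested. At 3 months 3 rose in CdCl2 livers and 0 fell: Per3, a period gene, Dbp and Tef, both PAR bZip output factors. Their log2 fold changes were 8.78 ± 1.04, 7.65 ± 0.94 and 2.77 ± 0.44 (edgeR adjusted p = 0.00643, 0.00643 and 0.0477). The first pair had at most 0.211 CPM in control livers at 3 months, at or under 1 read a library, so these fits depend on the prior count and are no measured size. At 3 months DESeq2 called the same 3 genes and Ciart higher, and Nfil3, a repressor that competes with the PAR bZip factors, lower (log2 fold change -3.18, adjusted p = 8.5e-05; edgeR 0.073). Limma voom called 0 of the 15 at that time, with 3 at an unadjusted p under 0.05, and in the 3-month libraries alone edgeR gave the 3 genes adjusted p of 0.265 for Per3, 0.273 for Dbp and 0.415 for Tef. Over fits that each left out a library, Per3 and Dbp passed in all 10 and Tef in 5 (adjusted p 0.0077 to 0.105). At 9 months 0 of the 15 passed in edgeR, with 7 at an unadjusted p under 0.05, where 2.25% of all genes were, and 3 and 1 called by DESeq2 and limma voom. For the mean of both times the same 3 genes passed in edgeR, with Tef at 2.34 ± 0.31 (adjusted p = 0.00969). DESeq2 called these 3 for the mean too, with Ciart higher and Nfil3 lower. Limma voom called Tef (adjusted p = 0.0138) and, lower, Nfil3 (0.0244) for the mean, but not Dbp (0.451) or Per3 (0.806). With each library left out in turn, Per3 and Dbp passed for the mean in all 10 fits and Tef in 8. The medians of the 15 were 0.52 at 3 months, 0.68 at 9 months and 0.71 for the mean, beside 0.01, 0.01 and 0.02 for all genes. In the controls, 9 against 3 months, Per3 passed with a higher level at 9 months, and did so in 5 of the 10 fits that left out a library.

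**Figure D5:**
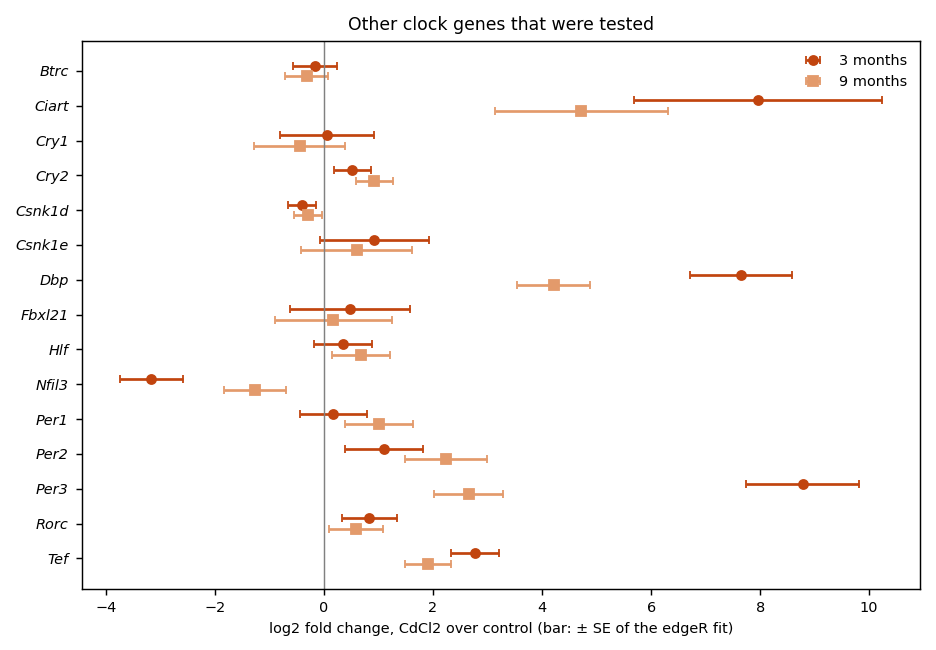
Log2 fold change of CdCl2 over control (x axis, with the SE of the edgeR fit) for the 15 tested clock genes that are not among the 8 (y axis), at 3 months (circles) and 9 months (squares). Per3, Dbp and Tef passed the threshold at 3 months; Ciart, Per3 and Dbp sit at or under 1 read a library in the 3-month controls.

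None of the 10 listed E-box outputs of CLOCK and ARNTL outside the core loop passed in edgeR at either time, with 2 at an unadjusted p under 0.05 at 3 months and 5 at 9 months, where 14.5% and 2.25% of all genes were, and 1 and 0 called by DESeq2. Their median log2 fold change was 0.18 at 3 months and 1.33 at 9 months, and the most abundant, Alas1, which starts heme synthesis, had 0.79 ± 0.85 and 1.78 ± 0.89 (edgeR adjusted p = 0.716 and 1.0). Por, the electron donor of liver cytochrome P450s, had -0.77 ± 0.75 and 1.13 ± 0.79. None of 10 corepressors and coactivators of the REV-ERBs and RORs passed (3 and 0 at an unadjusted p under 0.05, 1 and 0 by DESeq2), with a median of -0.10 at each time and Ncor1, the corepressor that REV-ERBs recruit, at 0.02 ± 0.26 and -0.21 ± 0.26. None of 9 cofactors of CLOCK and ARNTL passed either (1 and 1 unadjusted, 0 and 0 by DESeq2), with medians of 0.07 and 0.02. Kupffer cell and macrophage markers, 10 genes, likewise had none past the threshold (1 and 1 unadjusted, 0 and 0 by DESeq2), with a median of 0.57 at 3 months and 0.45 at 9 months and sums of 152 to 378 CPM in CdCl2 livers, against 148 to 234 CPM in control livers. For the 8 stellate cell and fibroblast markers the median was 0.54 after 3 and -0.56 after 9 months, for the 4 tested erythroid markers 0.30 and -0.34 and for the 8 endothelial markers -0.05 and 0.20, with none past the threshold in edgeR and 1, a stellate marker at 3 months, called by DESeq2. At an unadjusted p under 0.05 the stellate list had 1 and 0 members, and the erythroid and endothelial lists 0 and 0. The 11 tested pancreas markers had 0 positive values at each time, with medians of -6.5 at 3 months and -2.88 at 9 months. Hepatocyte markers had 3 of 9 positive at each time (medians -0.25 and -0.1). Kupffer cell and macrophage markers had 7 of 10 positive at 3 months and 10 of 10 at 9 months. EdgeR called none of the pancreas or hepatocyte list. The part of these lists in the results was not tested.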

How the data were processed

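RNA of 10 mouse liver input libraries was analysed. Per the file headers, the table has unnormalised read counts and TPM for 79884 RefSeq transcripts of 21768 genes. The deposited TPM columns each sum to 1000000. The submitters' processing notes name bcl2fastq, TopHat2 2.0.13, MACS2 2.1.0.20151222 and builds hg19, mm10 and rn6. No source used here names the read counter or the strand setting. Of 8118 single-transcript genes, 67.1% have both ends equal to the GRCm38.p6 table, so coordinates were taken as mm10. The 12 columns of 6 libraries that match no sample were not used, and the pull-down libraries were not analysed here.

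One transcript stood for each gene, the one with most reads in the 10 libraries together, since transcripts of a gene share reads. Counts were filtered with filterByExpr, scaled by TMM and fitted with edgeR 4.0.16 (R 4.3.3; glmQLFit and glmQLFTest, 4 group means, two-sided, Benjamini-Hochberg, threshold 0.05; residual degrees of freedom 6). DESeq2 1.42.0 and limma 3.58.1 were alternatives, and the code was tested on simulated data. Exact permutation tests enumerated every order of the 6 CdCl2 livers, and scipy 1.17.1 gave the ranks and the Benjamini-Hochberg adjustment. A correlation with Arntl over all 10 libraries had been planned. Its r ran from -0.859 for Bhlhe40 to 0.828 for Clock. It is not used as a result here, because the 3-month controls form a cluster of their own. Named are the 8 genes, with the 3 most and the 1 least similar gene of each, and the genes of each list past the threshold. Where none passed, a list is given by some of its 2 most abundant members, or by its sum or median only. Lymphocyte and cholangiocyte marker lists were also read, had no gene past the threshold in edgeR, and are not shown. Promoters came from RefSeq (GRCm38.p6). The genes, lists and tests were chosen with earlier results of these data known. One gene of the list of other clock genes is not reported here.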

Additional observations from a re-analysis of the deposited data

Results flagged for a closer look

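A short annotated Rora transcript at the 5′ end of the gene (chr9:68653407-68671170), which the comparisons above do not use, held 70 reads in the 3 CdCl2 livers at 3 months (15, 38 and 17), against 0 reads in the 2 control livers at 3 months. It drew attention because it shows a signal outside the main measurement, above the level in the controls. At 9 months it held 14 reads in the 3 CdCl2 livers, against 12 in the 2 control livers. Scaled over each group this was 0.798 CPM in CdCl2 livers and 0.995 CPM in control livers, so the 3-month direction was not seen at 9 months. The transcript that stands for Rora above had 17632 reads over the 10 libraries. The counts are small, 2 other short transcripts with the same or a nearby start share reads with it, and the difference was not tested.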

How the results depend on the processing

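The 8 genes' log2 fold changes kept their direction and their side of the threshold in 396 of 435 values under alternatives other than leaving out a library, became weaker in 3, stronger in 34 and reversed in 2, and did so in 443 of 479 values with a library left out (8 weaker, 17 stronger, 11 reversed). Only Rora within controls passed in the main fit, so an unchanged side mostly means that neither fit passed. The 435 values include the threshold of 0.1, which reuses the main folds and cannot change direction. Reversed were Bhlhe41's difference of effects, -0.15 with limma voom and -0.34 with the replicate block, against 0.37. Over left-out libraries these ranges crossed 0: Bhlhe41's difference of effects -4.75 to 1.27 and Clock's -0.25 to 0.67; Npas2 at 3 months -6.69 to 0.35; Bhlhe41, 9 over 3 months in controls, -0.34 to 5.69; and in CdCl2 livers Arntl -1.45 to 0.11, Nr1d2 -0.19 to 0.26 and Rora -0.31 to 0.04. The cause was not tested.

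Genes past the threshold at 3 months numbered 7, against 465 with DESeq2, 502 without a count filter, 2 with limma voom, 11 with transcript sums, 14 with the second transcript, 0 with the 3-month libraries alone, 113 at an adjusted p under 0.1 and 3 to 1247 over left-out libraries. At 9 months the 0 became 7 with DESeq2, 76 unfiltered, 3 with voom, 1 with the 9-month libraries alone and 0 to 1 over left-out libraries. For the mean the 9 became 112 with DESeq2, 243 unfiltered, 4 with at least 5 CPM in 2 libraries, 3 with sums, 14 with the second transcript, 23 at 0.1 and 3 to 391. For the difference of effects the 0 became 39, 208 unfiltered and 0 to 587. Within controls the 266 became 1220 with DESeq2, 1073 unfiltered, 435 at 5 CPM, 0 with voom or sums, 953 at 0.1 and 1 to 2339. Within CdCl2 livers the 0 became 11, 96, 3 with voom, 1 at 0.1 and 0 to 11. Among the fits with a library left out, the highest count in each comparison came without a 3-month control. Without a count filter the Arntl fold at 9 months and the Nr1d1 and Clock folds for the mean also passed.

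Whether the replicate numbers pair the livers could not be decided. Deviations of same-numbered livers from their group means correlated at 0.042, 0.00506, -0.29 and -0.101. With 2 controls per time, the deviations of the controls mirror each other, so the check has too little freedom to settle it. With the replicate block 3 genes passed at 3 months, 7 for the mean and 1 within controls, Arntl passed for the mean (-3.52, edgeR adjusted p = 0.0245) and Rora within controls did not (-1.23, 0.149), nor did it with voom (0.108) or transcript sums (0.07). With Npas2 and Bhlhe41 at 90 and 143 reads, depth limits both.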
